A study of Mus musculus with 16 samples.

Results

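The genes described here encode the factors that start and extend protein chains on the ribosome. They were taken from the RNA table by symbol, as every row whose name begins with Eif1 to Eif6 or with Eef1 or Eef2. Genes on chromosome Y and 1 further gene were left out. The choice gave 67 of the 25965 rows of the table, with 66 different symbols, because Eif2c2 has 2 rows. A total of 6 of these rows carry Eif2c symbols, of which Eif2c1 to Eif2c4 are older names of Argonaute genes (Ago1 to Ago4), which bind small RNAs and are not translation factors, and another row, Eif3s6-ps2, is named as a pseudogene.

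The oocytes were wild-type and came from C57BL/6 mice (named C57BL/6Babr in the study's methods). They were freed from the ovary with enzymes, picked by hand, washed and measured, so that each library is a pool of oocytes of 1 diameter class. Oocytes of 10–30 µm were taken on post-natal days 5–7, those of 40–45 µm on days 7–12, those of 50–55 µm on days 9–14 and those of 60–65 µm on days 13–16. Germinal vesicle (GV) oocytes, which are fully grown, were taken on day 20, so that diameter and age changed together and cannot be told apart. Strand-specific RNA-seq of total RNA was done with 2 libraries (A and B) for each class of growing oocytes and 1 for GV oocytes. Methylation was measured by RRBS, which samples CpG-rich fragments, with 2 libraries for each growing class but the smallest, and by PBAT, which samples the whole genome, with 1 library of 60–65 µm oocytes. Nothing in the labels says that A and B came from separate animals, so p-values measure only the spread between these libraries.

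A ribosome begins at the cap of an mRNA, which is bound by eIF4E. eIF4G ties eIF4E to the helicase eIF4A and, through the large complex eIF3, to the small ribosomal subunit, which carries the initiator tRNA held by eIF2. After scanning, eIF1, eIF1A and eIF5 govern the choice of the start codon, eIF5B joins the large subunit, and the elongation factors eEF1A and eEF2 then bring each tRNA and move the ribosome. The 4E-BP proteins sequester eIF4E, kinases of eIF2 alpha block the exchange factor eIF2B, and eEF2 kinase slows elongation by phosphorylating eEF2. A growing oocyte builds up ribosomes and mRNAs, many of which are stored and translated only later.

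Values are RPKM, that is, read numbers divided by exon length and by library size. RPKM is a share of the library, so that a gene of constant amount in an oocyte whose RNA increases has a falling RPKM, and in bulk samples fewer cells of a type and less RNA per cell cannot be told apart. Library totals worked out from the steps of the RPKM values were 99369461 to 198298153 reads. Of the 67 rows, 60 reached 0.5 RPKM in at least 2 of the 8 libraries of growing oocytes and were tested among 10518 genes. Each tested row had at least 57 reads in every library, and 49 of the 60 had at least 1000. The 7 rows that were not tested were Eef1a2, Eif2ak2, Eif2c1, Eif2c4, Eif2c5, the short row of Eif2c2 and Eif3s6-ps2.

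The libraries carried the markers of oocytes. The summed level of 12 oocyte markers was 2858 to 3955 RPKM in growing oocytes, with Zp2, a protein of the zona pellucida, at 619.5 RPKM or more. Markers of other cells were low but not constant. Summed over 12 granulosa markers the level was 2.19 and 2.61 RPKM at 10–30 µm and 8.09 and 7.39 RPKM at 60–65 µm, most of it Nr5a2. The 3 markers of this list that were tested, Nr5a2, Cyp19a1 (0.161 and 0.159 to 1.25 and 1.04 RPKM) and Inha (0.136 and 0.2004 to 0.542 and 0.528 RPKM), were all called as higher. The others were too low to test, with Foxl2 at 0.0642 RPKM or below. Summed over 9 markers of theca and stroma it was 4.0 and 2.87 RPKM at 10–30 µm and 1.22 and 1.23 RPKM at 60–65 µm. For blood and endothelium, 6 of 7 markers had a row and rose in sum from 0.812 and 0.747 to 5.11 and 4.62 RPKM, nearly all of it Pecam1, with Ptprc at 0.0084 RPKM or below. The part of these cells in the results below was not tested.

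To show the sequence at which these genes start, 10 members with called changes that had an entry are printed from the RefSeq promoter table (build GRCm38.p6), from 50 bases before to 25 bases after the annotated start, 5′ to 3′ on the gene's strand. The first 6 are genes whose RNA fell and the last 4 are genes whose RNA rose. They are examples and not the largest changes in order, since Eef1a1, for one, had an entry and is not printed. The annotated starts of Eif2b4 and Eif2s3x lie 291 and 211 bases from the starts of their rows in the RNA table. Capitals mark CCGGAAG or its reverse complement, TATAAA or its reverse complement, and runs of at least 8 pyrimidines that lie within 20 bases before and 30 bases after the start.
Eef2: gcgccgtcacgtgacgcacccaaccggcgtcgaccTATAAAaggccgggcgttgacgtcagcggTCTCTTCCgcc
Eif2s3x: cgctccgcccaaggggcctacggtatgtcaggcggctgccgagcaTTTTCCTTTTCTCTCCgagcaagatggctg
Eif2b5: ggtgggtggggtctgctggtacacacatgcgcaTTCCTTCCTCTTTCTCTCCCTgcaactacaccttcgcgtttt
Eef1b2: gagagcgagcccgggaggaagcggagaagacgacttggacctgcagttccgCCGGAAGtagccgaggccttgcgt
Eif5a2: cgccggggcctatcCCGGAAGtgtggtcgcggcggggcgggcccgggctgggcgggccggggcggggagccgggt
Eif4a2: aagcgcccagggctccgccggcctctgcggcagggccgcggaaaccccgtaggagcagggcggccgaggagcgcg
Eif2b4: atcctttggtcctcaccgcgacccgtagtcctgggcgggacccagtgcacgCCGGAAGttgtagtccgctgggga
Eef2k: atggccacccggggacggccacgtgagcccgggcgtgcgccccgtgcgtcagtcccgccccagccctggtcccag
Eif2ak4: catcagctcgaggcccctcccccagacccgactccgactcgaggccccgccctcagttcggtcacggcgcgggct
Eif4h: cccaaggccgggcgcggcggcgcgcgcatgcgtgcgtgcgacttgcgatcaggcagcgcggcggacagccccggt

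The positions are Eef2 at chr10:81176581-81176655 (+), Eif2s3x at chrX:94212627-94212701 (-), Eif2b5 at chr16:20498767-20498841 (+), Eef1b2 at chr1:63176781-63176855 (+), Eif5a2 at chr3:28781227-28781301 (+), Eif4a2 at chr16:23107418-23107492 (+), Eif2b4 at chr5:31193115-31193189 (-), Eef2k at chr7:120842781-120842855 (+), Eif2ak4 at chr2:118388567-118388641 (+) and Eif4h at chr5:134639385-134639459 (-). A long pyrimidine run crossed the annotated start of Eif2s3x (16 bases) and that of Eif2b5 (21 bases), and a run of 8 followed the start of Eef2, whose window also held TATAAA. The windows of Eef1b2, Eif5a2 and Eif2b4 held CCGGAAG, and those of Eif4a2, Eef2k, Eif2ak4 and Eif4h held no marked letters. Of the 66 symbols, 52 had an entry, with 68 annotated starts. Over the whole of these entries, which reach further upstream and downstream than the printed windows, CCGGAAG was found on either strand at 21 of 68 member starts (30.9%), against 19.1% of the starts of all tested genes and 8.86% of all 32851 starts. Among members it was at 14 of 31 starts of genes that fell (45.2%), 4 of 13 of genes that rose and 3 of 18 of genes not called. The same split was not made over all tested genes, so whether it is particular to the members was not tested. The pyrimidine run was at 16 of 68 member starts (23.5%), against 17.9% of the starts of all tested genes, and TATAAA at 4 (5.88%), against 6.97%. These counts describe letters in a window, and starts of 1 gene overlap.

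From 10–30 to 60–65 µm more of the members fell than rose. Of the 60 members tested, 29 were lower (48.3%) and 12 higher (20%) at 60–65 µm, against 30.8% and 32.6% of all genes tested (limma on log2 RPKM, adjusted p under 0.05 over all genes). The median log2 fold change was -0.33 over the members and 0.02 over all genes tested. By overlap of RPKM alone, 34 members had both libraries of 60–65 µm below both of 10–30 µm (56.7%, against 41.9% of all genes tested) and 15 had both above (25%, against 40.2%). Together the 67 rows made up 1.43% and 1.36% of the summed RPKM at 10–30 µm and 1.00% and 0.997% at 60–65 µm, with 0.955% in GV oocytes. Of the 41 calls, 26 were made again whichever single library was left out, 19 lower and 7 higher. The other 15 were lost without at least 1 library, and most of these had small changes.

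**Figure D1:**
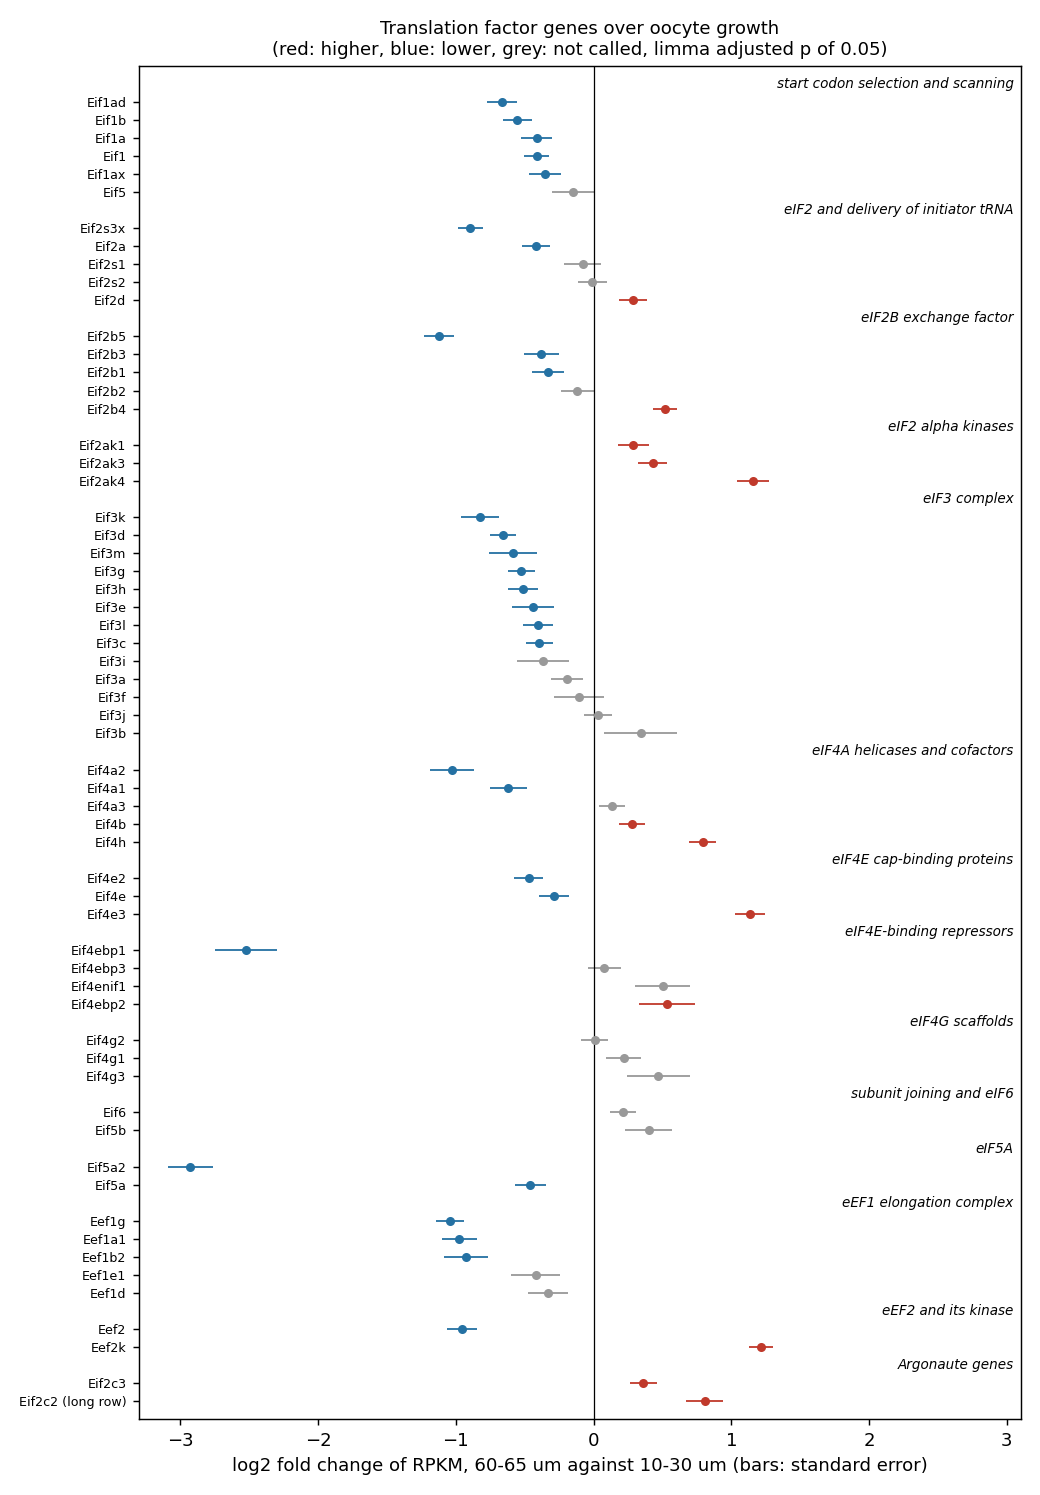
Log2 fold change of RPKM from 10–30 to 60–65 µm (horizontal axis) of the 60 tested members, grouped by role, with bars of 1 standard error. Members in blue were lower (29), in red higher (12) and in grey not called, and Eif5a2 and Eif4ebp1 lie far to the left of the others.

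Of the 5 tested genes of the eEF1 group, 3 fell and none rose, where 30.8% of all genes tested fell and 32.6% rose. Eef1a1, which encodes eEF1A, the carrier of aminoacyl-tRNA, had the highest level of all members in each library, with 390.3 and 333.0 RPKM at 10–30 µm, 249.0 and 271.2 at 40–45 µm, 225.1 and 214.3 at 50–55 µm, 175.7 and 186.3 at 60–65 µm and 149.0 in GV oocytes. The values of 60–65 µm lay below all those of the smaller classes, with a log2 fold change of -0.97 ± 0.13 (SE) and an adjusted p of 0.000263 in limma. Its part of the summed RPKM of the members was 29.0% and 26.3% at 10–30 µm and 18.6% and 19.9% at 60–65 µm. Processed copies of this gene are common in mammalian genomes, and the aligner kept 1 place for each read, so reads of such copies may be shared with it. The paralogue Eef1a2, of muscle and brain, was at 0.003 RPKM or below in all libraries.

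The exchange factors that reload eEF1A fell with it in 2 of 3 cases. Eef1g, which encodes the gamma subunit, had 8.76 and 8.07 RPKM at 10–30 µm, 4.44 and 4.76 at 40–45 µm, 3.94 and 3.89 at 50–55 µm, and 3.87 and 4.10 at 60–65 µm, a log2 fold change of -1.04 ± 0.10 (adjusted p = 5.71e-05, limma). Most of this fall was in the first step. Eef1b2, which encodes the nucleotide exchange subunit, went from 15.5 and 12.3 to 7.25 and 7.0 RPKM (-0.93 ± 0.16, adjusted p = 0.00114, limma), whereas Eef1d, another exchange subunit, had a log2 fold change of -0.33 ± 0.15 that was not called (adjusted p = 0.0758, limma). Eef1e1, a scaffold protein of tRNA synthetases, was not called either. Without 10–30 µm B both were called as lower, with log2 fold changes of -0.56 (Eef1d) and -0.65 (Eef1e1), and also without scaling between libraries.

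Eef2 and its kinase moved in opposite directions. Eef2, which encodes the translocase of elongation, had 99.9 and 104.0 RPKM at 10–30 µm, 59.9 and 72.3 at 40–45 µm, 55.9 and 55.3 at 50–55 µm, 54.4 and 49.3 at 60–65 µm and 44.5 in GV oocytes. It fell 1.94-fold from the smallest to the largest growing class (log2 fold change -0.96 ± 0.11, adjusted p = 0.000113, limma). Eef2k, which encodes the kinase that inactivates eEF2, had 8.33 and 8.97, 12.4 and 12.7, 16.3 and 16.1, and 20.7 and 19.2 RPKM in the growing classes and 24.2 in GV oocytes. The classes did not overlap at any step, and the rise was 2.33-fold (log2 fold change 1.22 ± 0.09, adjusted p = 1.44e-05, limma). This was the largest rise of any member in the main fit, but those of Eif2ak4 (1.16 ± 0.12) and Eif4e3 (1.13 ± 0.11) were close. Over the settings run, the highest value was 1.28 for Eif2ak4 and 1.27 for Eef2k, so the order depends on the setting. The ratio of Eef2k to Eef2 RPKM was thus 0.0834 and 0.0863 at 10–30 µm, 0.381 and 0.390 at 60–65 µm and 0.543 in GV oocytes.

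Of the 2 genes of eIF5A, a factor that helps ribosomes past stalling sequences, both were called as lower, as were 30.8% of all genes tested. Eif5a2, the paralogue with a narrow range of tissues, had 3.55 and 4.01 RPKM at 10–30 µm, 1.44 and 1.82 at 40–45 µm, 0.681 and 0.801 at 50–55 µm, 0.335 and 0.476 at 60–65 µm and 0.202 in GV oocytes. The classes did not overlap, and it fell 7.61-fold (log2 fold change -2.93 ± 0.16, adjusted p = 6.9e-06, limma). This was the largest fall of the members with a pseudocount of 0.1, but its size depends on the pseudocount because the level is low. With a pseudocount of 1 the log2 fold change of Eif5a2 was -1.74, smaller than that of Eif4ebp1 (-1.92). Eif5a itself, at 26.2 and 29.4 RPKM at 10–30 µm and 20.1 and 19.7 at 60–65 µm, changed by -0.46 ± 0.11 (adjusted p = 0.00688, limma).

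The cap-binding proteins changed places in the order of levels. Eif4e, which encodes the classic cap-binding protein, had 28.1 and 25.3 RPKM at 10–30 µm, 24.1 and 24.0 at 40–45 µm, 23.9 and 22.0 at 50–55 µm, 21.0 and 22.1 at 60–65 µm and 22.8 in GV oocytes. Eif4e3, which encodes another member of the family with an atypical cap pocket, had 12 and 15.1, 19.7 and 19.8, 25 and 24.7, and 31.0 and 27.6 RPKM in the growing classes and 33.4 in GV oocytes. The ratio of Eif4e3 to Eif4e rose from 0.426 and 0.597 at 10–30 µm through 0.815 and 0.825 at 40–45 µm and 1.05 and 1.12 at 50–55 µm to 1.48 and 1.25 at 60–65 µm. The rise of Eif4e3 was called (log2 fold change 1.13 ± 0.11, adjusted p = 5.74e-05, limma). A row named Gm20696 covers the same 41637 bases on the same strand and rose too, from a mean of 1.71 to 3.63 RPKM, so the reads of both cannot be told apart here. The fall of Eif4e was small (-0.29 ± 0.11, adjusted p = 0.0461, limma) and was no longer called when any 1 of 7 libraries was left out, with adjusted p up to 0.218 without 60–65 µm A. Only without 10–30 µm B did it keep its call. Eif4e2, which encodes a cap-binding protein that can repress translation, fell from 2.35 and 2.17 to 1.53 and 1.63 RPKM (-0.47 ± 0.11, adjusted p = 0.00508, limma).

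Among the proteins that hold eIF4E, Eif4ebp1 fell and its relatives did not. Eif4ebp1, which encodes 4E-BP1, had 7.32 and 7.70 RPKM at 10–30 µm, 2.22 and 4.01 at 40–45 µm, 1.80 and 1.78 at 50–55 µm, 1.06 and 1.36 at 60–65 µm and 0.822 in GV oocytes. This was a 5.76-fold fall (log2 fold change -2.53 ± 0.23, adjusted p = 3.71e-05, limma), with the first step alone at -1.20 ± 0.23 (adjusted p = 0.0081, limma). Eif4ebp2 was low throughout, at 0.513 and 0.736 RPKM at 10–30 µm and 1.04 and 0.820 at 60–65 µm. Its rise of 0.53 ± 0.20 was called only narrowly (adjusted p = 0.0482, limma) and was lost without 10–30 µm A or without either library of 40–45 or 60–65 µm, with an adjusted p of 0.249 without 10–30 µm A. Eif4ebp3 was at 0.546 to 0.857 RPKM in all growing libraries (0.08 ± 0.12, adjusted p = 0.593, limma), and its row overlaps Ankhd1 on the same strand over its whole length of 1858 bases. The ratio of Eif4ebp1 to Eif4ebp2 was 14.3 and 10.5 at 10–30 µm, 1.02 and 1.66 at 60–65 µm and 1.04 in GV oocytes. Eif4enif1, which encodes the transporter 4E-T, had 14.5 and 22.1 RPKM at 10–30 µm and 24.8 and 25.3 at 60–65 µm and was not called (adjusted p = 0.054, limma), the libraries of 10–30 µm being far apart. It was called without 10–30 µm B (log2 fold change 0.76) and without either library of 40–45 µm.

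**Figure D2:**
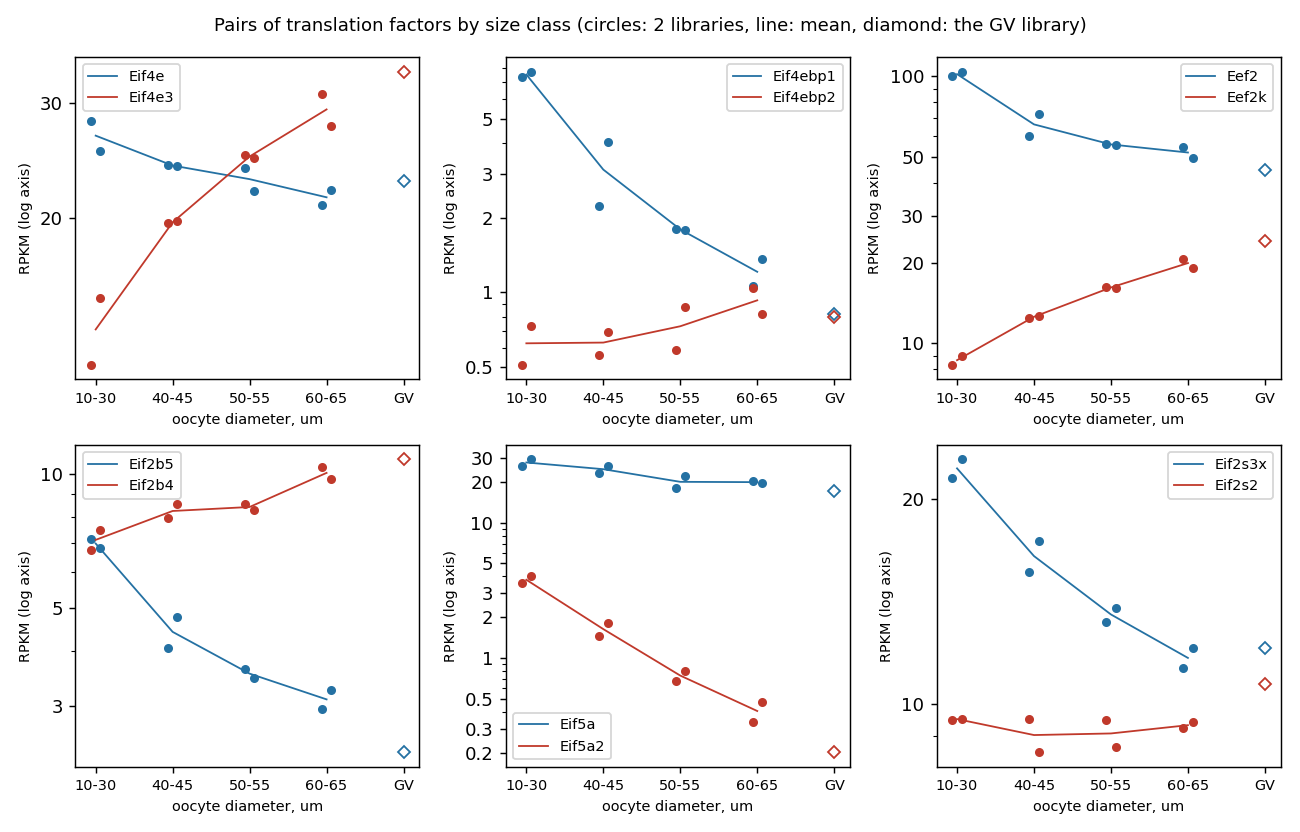
RPKM (log axis) of 6 pairs of translation factors by diameter class, with both libraries as circles, a line through the mean of each class and the single GV library as an open diamond. Eif4e3 lies below Eif4e at 10–30 µm and above it from 50–55 µm on, while Eef2k, Eif2b4 and Eif4e3 rise and Eef2, Eif2b5, Eif2s3x, Eif4ebp1 and Eif5a2 fall.

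The rest of the cap complex split by subunit. The scaffolds of eIF4G were not called in any comparison of the fit without pairing of libraries. With the replicate letter as a block, Eif4g1 and Eif4g3 were called as higher over the whole of growth. Without 10–30 µm B the log2 fold change of Eif4g3 was 0.82. Eif4g1 had 12.2 and 15.5 RPKM at 10–30 µm and 15.5 and 16.2 at 60–65 µm, Eif4g2, the scaffold of cap-independent initiation, had 10.2 and 12.1 against 11.6 and 10.5, and Eif4g3 had 1.80 and 3.19 against 3.50 and 3.16. The helicases themselves fell, Eif4a1 from 76.1 and 62.2 to 43.0 and 45.3 RPKM (-0.62 ± 0.13, adjusted p = 0.00372, limma) and Eif4a2 from 13.4 and 10.8 to 5.72 and 5.83 (-1.03 ± 0.16, adjusted p = 0.000739, limma). Their cofactors rose, Eif4h from 25.9 and 27.2 to 45.4 and 45.4 RPKM (0.79 ± 0.10, adjusted p = 0.000197, limma) and Eif4b by 0.28 ± 0.09 (adjusted p = 0.0268, limma). The call of Eif4b was lost without either library of 10–30 µm or of 50–55 µm and without 60–65 µm A, with an adjusted p of 0.189 in the last case. In GV oocytes Eif4h was back at 37.3 RPKM. Eif4a3, the related helicase of the exon junction complex, had 23.8 and 24.5 against 25.8 and 26.6 RPKM and was not called.

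The subunits of eIF2, which carries the initiator tRNA, fell or were not called. Those of eIF2B, which reloads eIF2 with GTP, rose, fell or were not called. Eif2s1 and Eif2s2, for the alpha and beta subunits of eIF2, were not called, with log2 fold changes of -0.08 ± 0.14 and -0.01 ± 0.11. Eif2s3x, the X-linked gene of the gamma subunit, had 21.5 and 22.9 RPKM at 10–30 µm, 15.7 and 17.3 at 40–45 µm, 13.2 and 13.9 at 50–55 µm, 11.3 and 12.1 at 60–65 µm and 12.1 in GV oocytes. It fell in a row of non-overlapping classes (-0.90 ± 0.09, adjusted p = 7.17e-05, limma), and its ratio to Eif2s2 went from 2.26 and 2.40 to 1.22 and 1.28. In eIF2B, Eif2b5, for the catalytic epsilon subunit, had 7.13 and 6.81 RPKM at 10–30 µm, 4.05 and 4.76 at 40–45 µm, 3.64 and 3.46 at 50–55 µm, 2.96 and 3.25 at 60–65 µm and 2.36 in GV oocytes (-1.12 ± 0.11, adjusted p = 5.72e-05, limma). Eif2b4, for the delta subunit, rose from 6.73 and 7.48 to 10.4 and 9.73 RPKM (0.52 ± 0.09, adjusted p = 0.00114, limma), with 10.8 in GV oocytes. The 2 subunits thus had about the same RPKM at 10–30 µm, with ratios of Eif2b5 to Eif2b4 of 1.06 and 0.911, and ratios of 0.284 and 0.334 at 60–65 µm. Of the other subunits, Eif2b1 and Eif2b3 fell by 0.33 and 0.38 on the log2 scale, calls that were both lost without either library of 60–65 µm or without 10–30 µm A, that of Eif2b1 also without either library of 50–55 µm, with adjusted p of up to 0.179 (Eif2b1) and 0.163 (Eif2b3), and Eif2b2 was not called.

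The 3 tested kinases of eIF2 alpha were called as higher, as were 32.6% of all genes tested. Eif2ak4, which encodes the amino acid sensor GCN2, had 1.55 and 1.99 RPKM at 10–30 µm, 2.38 and 2.72 at 40–45 µm, 3.28 and 3.56 at 50–55 µm, 4.06 and 3.90 at 60–65 µm and 5.12 in GV oocytes, a 2.23-fold rise among growing oocytes (log2 fold change 1.16 ± 0.12, adjusted p = 6.61e-05, limma). Eif2ak3, which encodes the endoplasmic reticulum sensor PERK, rose from 1.43 and 1.73 to 2.14 and 2.11 RPKM (0.43 ± 0.11, adjusted p = 0.00788, limma). Eif2ak1, which encodes the haem-regulated kinase, rose by 0.29 ± 0.11 (adjusted p = 0.0459, limma), a call that was lost without either library of 50–55 or 60–65 µm or without 10–30 µm A, where the adjusted p was 0.209, and also without scaling between libraries (0.0944) and with median ratios. Eif2ak2, which encodes PKR, the sensor of double-stranded RNA, was at 0.0354 RPKM or below in all libraries.

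Of the factors that select the start codon, 5 of 6 fell and none rose, where 30.8% of all genes tested fell and 32.6% rose. Eif1b, the most abundant, went from 56.4 and 51.2 to 36.4 and 35.7 RPKM (-0.56 ± 0.11, adjusted p = 0.00197, limma), and Eif1 from 6.49 and 7.51 to 5.35 and 4.95 (-0.41 ± 0.09, adjusted p = 0.0046, limma). Eif1ax and Eif1a, which encode forms of eIF1A, changed by -0.35 ± 0.12 and -0.41 ± 0.11. The call of Eif1ax was lost without 10–30 µm A or either library of 60–65 µm (adjusted p 0.094 to 0.119, limma), and that of Eif1a without 60–65 µm A (0.0687). Eif1ad, a relative of eIF1A, fell by 0.67 on the log2 scale. Eif5, which promotes hydrolysis of GTP on eIF2, had 19.6 and 28.6 RPKM at 10–30 µm and 21.8 and 20.4 at 60–65 µm and was not called, though it was called as lower without 10–30 µm A (-0.38, adjusted p = 0.0395, limma). For the late steps, Eif5b (0.40 ± 0.17) and Eif6 (0.21 ± 0.10), which keeps the large subunit free, were not called (adjusted p = 0.0654 and 0.0842, limma). Without 60–65 µm B, Eif5b was called as higher (0.64, adjusted p = 0.0129, limma). Eif2a and Eif2d, which deliver tRNA independently of eIF2, changed by -0.42 ± 0.10 and 0.29 ± 0.10. The call of Eif2a was lost without 60–65 µm A (adjusted p = 0.0554, limma), and that of Eif2d without any 1 library of 10–30, 50–55 or 60–65 µm (adjusted p of up to 0.155, limma).

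In eIF3, the largest of the initiation complexes, 8 of 13 subunit genes fell and none rose, where 30.8% of all genes tested fell and 32.6% rose, with a median log2 fold change of -0.41. The subunits are all given here, whether or not a change was called. The 8 that fell were the 8 with the highest mean RPKM at 10–30 µm, from Eif3k at 60.1 and 47.2 RPKM (29.7 and 29.5 at 60–65 µm, -0.83 ± 0.14, adjusted p = 0.00111, limma) to Eif3h at 19.1 and 19.6 (13.9 and 12.8 at 60–65 µm, -0.51 ± 0.11). Between these lay Eif3g, Eif3l, Eif3c, Eif3e, Eif3d and Eif3m, with changes of -0.39 to -0.66. The 5 that were not called, Eif3a, Eif3b, Eif3f, Eif3i and Eif3j, had the lowest levels and log2 fold changes of -0.37 to 0.34. Without 10–30 µm B, Eif3i was called as lower (-0.69, adjusted p = 0.00253, limma). Eif3a, for the largest subunit, had 6.31 and 7.36 RPKM at 10–30 µm and 6.08 and 5.67 at 60–65 µm, and Eif3b had 5.14 and 8.76 against 9.89 and 7.19, with libraries A and B far apart in each class. The call of Eif3c was lost without 60–65 µm B (adjusted p = 0.0647, limma), and those of Eif3e, Eif3l and Eif3m without 10–30 µm A or either library of 60–65 µm (adjusted p of up to 0.169, 0.0676 and 0.0996, limma). The highest mean RPKM among subunits was 19.0 times the lowest at 10–30 µm and 11.1 times at 60–65 µm.

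**Figure D3:**
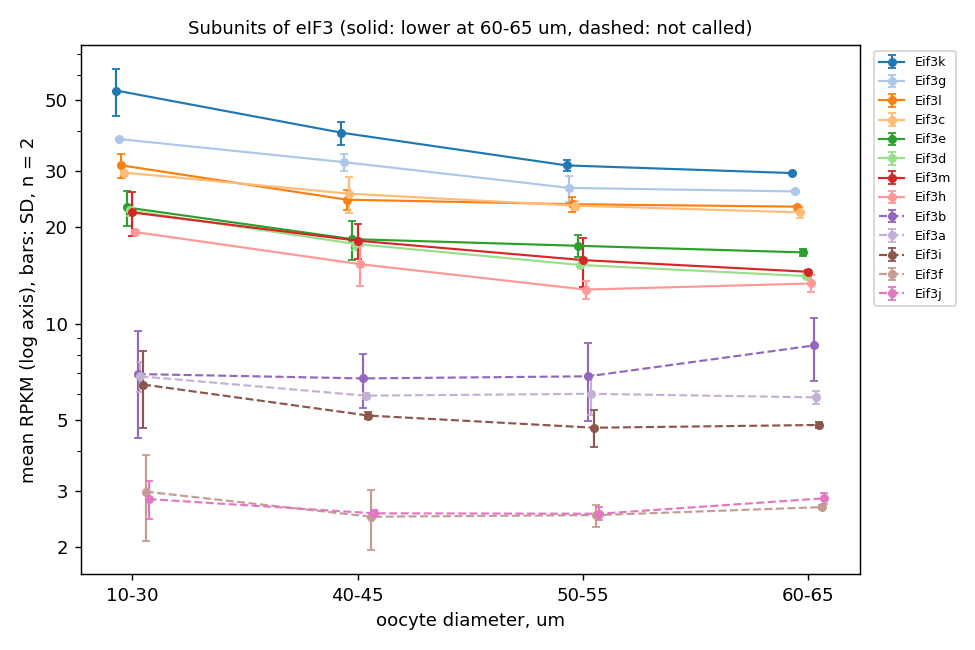
Mean RPKM (log axis, bars are the SD of 2 libraries) of the 13 subunits of eIF3 by diameter class. The 8 subunits with solid lines fell and lie above the 5 with dashed lines, which were not called.

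Of the 6 rows with Eif2c symbols, 2 were tested and both were called as higher, as were 32.6% of all genes tested. The long row of Eif2c2, which encodes the slicer AGO2, went from 1.17 and 1.60 to 2.51 and 2.36 RPKM (0.81 ± 0.13, adjusted p = 0.00101, limma). Eif2c3 went from 0.966 and 1.07 to 1.31 and 1.32 RPKM (0.36 ± 0.10, adjusted p = 0.011, limma), a call lost without 60–65 µm B (0.0561). Eif2c1 and Eif2c4, at 0.232 RPKM or below and too low to test, went the other way. Eif2c1 had 0.150 and 0.177 RPKM at 10–30 µm and 0.0504 and 0.0524 at 60–65 µm. Eif2c4 had 0.232 and 0.177 RPKM at 10–30 µm and 0.103 and 0.0883 at 60–65 µm.

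Next, consecutive classes were compared to place these changes in time. From 10–30 to 40–45 µm, 7 members were lower (11.7%) and 5 higher (8.33%), against 8.57% and 14.9% of all genes tested. The members that fell were Eif4ebp1, Eif5a2, Eef1g, Eef1b2, Eif2b5, Eef2 and Eif2s3x, and those that rose were Eif4e3, Eef2k, Eif2ak4, Eif4h and Eif2b4, so that each was called again in the same direction over the whole of growth, a comparison that shares the libraries of 10–30 µm. Not every call of this step held in other settings. Eif2b4 was not called without scaling (adjusted p = 0.134, limma) and Eef1b2 was not called with no filter (adjusted p = 0.0627, limma). Others were lost when a library was left out. Without regard to the test, 33 members had both libraries of 40–45 µm below both of 10–30 µm (55.0%, against 37.0% of all genes) and 5 had both above (8.33%, against 22.4%). The largest of the rises in this step were those of Eif4e3 (0.65 ± 0.11) and Eef2k (0.64 ± 0.09). This step depended on the scaling between libraries. Of all calls, 63.5% were higher with the trimmed mean, 53.0% with median ratios and 41.7% without scaling, and the median of all genes moved from 0.03 to -0.07 without scaling. With median ratios 11 members were lower and 4 higher, where 1141 of all genes were lower and 1287 higher. Without scaling 13 members were lower and 4 higher, where 1521 of all genes were lower and 1088 higher. Without 40–45 µm A there were 3 members lower and 3 higher, with 269 and 693 over all genes, and without 10–30 µm B there were 12 and 7, with 1031 and 1793 over all genes.

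From 40–45 to 50–55 µm, in a fit without pairing of libraries, 1 member was called, Eif5a2, as lower (1.67% of members, against 3.64% of all genes), and 0 members were higher (against 5.23%), where 8.87% of all genes were called in either direction. In 24 members both libraries of 50–55 µm lay below both of 40–45 µm (40.0%, against 26.5%), and in 11 above (18.3%, against 33.0%). Its log2 fold change was -1.08 ± 0.16 (adjusted p = 0.0154, limma), and it was not called without 40–45 µm B (0.0947) or without 50–55 µm A (0.144). The number of calls in this step changed when a library was left out, among the members and over all genes alike. This was so even for the libraries of 10–30 µm, although neither is in this comparison. An unadjusted p under 0.05 was reached by 20 of the 60 members (33.3%), against 28.8% of all genes tested. Deviations of the A libraries from the class mean correlated at 0.67 between these classes. A fit with the replicate letter as a block, described at the end, called 1003 genes higher and 906 lower in this step. Among them were Eef2k and Eif2ak4 as higher and Eif4ebp1 and Eif2s3x as lower. From 50–55 to 60–65 µm, 0 members and 0 of 10518 genes were called in limma (0.0% in either direction), with 7 members (11.7%) and 1452 genes (13.8%) at an unadjusted p under 0.05. In 15 members both libraries of 60–65 µm lay above both of 50–55 µm (against 32.0% of all genes), and in 13 below (21.7%, against 22.3%). Eif5a2 had the largest change of the members in this step too (-0.78 ± 0.16, adjusted p = 0.135, limma).

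In GV oocytes, which have 1 library and no test, only Eif5a2 among the 60 tested members was over 1.5-fold away from the mean of 60–65 µm (0.498 of it), or 1.67% of members against 4.65% of all genes tested when 0.1 RPKM was added to each value. The median ratio of the members was -0.05 on the log2 scale, with 33 members below both libraries of 60–65 µm (55%, against 46.2% of all genes tested) and 17 above both (28.3%, against 35.1%). Eif4ebp1 (0.680), Eif1a (0.692) and Eif2b5 (0.761) were among the lowest ratios and Eif2c3 (1.42), Eif5b (1.42), Eif2ak4 (1.28) and Eef2k (1.21) among the highest.

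Other genes of translation gave mixed counts over the same comparison, in which 30.8% of all genes tested fell and 32.6% rose. Among poly(A)-binding proteins and their partners, 2 of 6 rose and 2 fell, with Pabpc1l, the embryonic poly(A)-binding protein, going from 11 and 13.9 to 30.8 and 29.3 RPKM and Pabpc1, the somatic form, from 1.46 and 1.65 to 0.961 and 0.784. The others were Paip1 (log2 fold change 0.53) and Pabpc4 (-0.46). Of 12 kinases, phosphatases and inhibitors of initiation, 3 rose and 2 fell. Atf4, whose mRNA is translated when eIF2 alpha is phosphorylated, rose from 16.9 and 16.4 to 34.1 and 32.7 RPKM, and Ppp1r15b, a subunit of the phosphatase that reverses this mark, from 2.36 and 3.09 to 5.34 and 4.67. Impact, an inhibitor of GCN2, fell from 5.15 and 5.05 to 1.63 and 1.80 RPKM. Mknk1, a kinase of eIF4E, rose by 0.53 and Rps6kb2, a kinase of ribosomal protein S6, fell by 0.74 on the log2 scale.

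Of 8 tested genes of termination and recycling, 3 fell and 1 rose, where 30.8% of all genes tested fell and 32.6% rose. Denr, which helps to recycle the small subunit, fell from 4.42 and 4.83 to 2.04 and 1.83 RPKM, while Gspt2, a form of the release factor eRF3, rose from 3.64 and 4.18 to 9.77 and 7.83. Abce1 (-0.74) and Mcts1 (-0.51) also fell. Of 9 genes that modify eIF5A and eEF2, 3 fell and 3 rose, with Dhps, the first enzyme of the hypusine of eIF5A, going from 1.90 and 1.68 to 0.798 and 0.842 RPKM. Dph1 (-0.90) and Dnajc24 (-0.69) fell and Atpbd4 (0.85), Wdr85 (0.67) and Dph2 (0.57) rose. Of 9 mitochondrial translation factors, 5 fell and none rose, against the same shares of all genes tested. The largest fall was that of Mtif2 (log2 fold change -1.48), followed by Mtrf1l (-0.80), Mrrf (-0.47), Tufm (-0.39) and Gfm2 (-0.35). Of 6 other factors 2 rose, Ddx3x (0.44) and Dhx29 (0.43), and none fell.

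Methylation of DNA, which grows over the same period, was measured at the same genes. Within 500 bases on either side of the gene start, with positions of at least 5 reads, 54 to 59 members were measured in each RRBS library, with medians of 0.302% to 0.505%, against 0.299% to 0.576% over all tested genes. The exception was Eif4ebp3. Its start had 2.70% and 0% methylation at 40–45 µm (14 of 553 and 0 of 560 calls), 30.0% and 30.7% at 50–55 µm (158 of 494 and 100 of 443 calls) and 62.6% and 65.1% at 60–65 µm (181 of 301 and 384 of 596 calls), over 11 to 13 positions. The 2 libraries of a class were close together and the classes were far apart, and the values are given without a test because the gene was singled out for them. No other member reached 25% in an RRBS library, a level passed by 0.0739% and 0.102% of tested genes at 40–45 µm, 0.261% and 0.337% at 50–55 µm and 0.896% and 0.941% at 60–65 µm. This start lies inside the Ankhd1 gene, on the same strand. The PBAT library had 4 positions there, fewer than the minimum, with 17 of 20 calls methylated. RNA in the row of Eif4ebp3 was 0.546 and 0.626 RPKM at 40–45 µm and 0.857 and 0.728 at 60–65 µm. The next highest value of a member in RRBS was 13.3% at Eef2 in 40–45 µm B, against 0.650% in 40–45 µm A.

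In the PBAT library 61 of 64 measured starts were under 10%, with a median of 3.47%, against 3.20% over all tested genes. The others were the short row of Eif2c2 (57.1%, 9 positions), against 2.7% of all tested genes at 25% or more, Eif4g1 (17.7%, 9 positions, 10 of 63 calls) and Eif2ak2 (11.1%, 22 of 196 calls). Eif2ak2 had 1.40% or less in the RRBS libraries. The short row of Eif2c2 lies wholly within Chrac1 and beyond the end of the long row, whose start had 2.31%. Windows were set at the start of each row. For Eif4g1 this was position 20668313 of chromosome 16, whereas its only RefSeq entry covers 20672477 to 20672776.

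Over gene bodies, 56 members of at least 4000 bases with at least 10 positions were measured in the PBAT library of 60–65 µm oocytes. Their median was 28.5% (quartiles 17.7% and 40.4%), against 32.1% over 9199 tested genes (quartiles 19.2% and 44.1%). The lowest was Eef1a1, the most abundant member, with 2.76% (29 of 1154 calls), followed by Eif5a (4.22%) and Eif4a2 (5.95%). Bodies were taken over the whole row and so include the bases after the gene start, where methylation was low in most members. The row of Eef1a1 spans 10703 bases, and most of it lies upstream of the only RefSeq entry of this gene (chr9:78481675-78481974). Its value is therefore largely not that of the transcribed part of this entry. In all, 8 members (14.3%) were under 10%, against 10.1% of all genes. At least 50% was reached by 6 members (10.7%), against 14.6%, namely Eif2b5 (60.0%), Eif2ak4 (56.5%), Eif3d, Eif3i, Eif2b3 and Eif4g3, which include genes that fell, genes that rose and genes not called. The medians were 27.7% for the 26 measured members that fell, 35.3% for the 12 that rose and 23.4% for the 18 not called, with ranges that overlapped widely. For Eif2b5 the 95% Wilson interval of the pooled calls was 57.9% to 64.4% (516 of 843 calls), and for Eef1a1 it was 1.76% to 3.59%, intervals that cover counting error only.

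**Figure D4:**
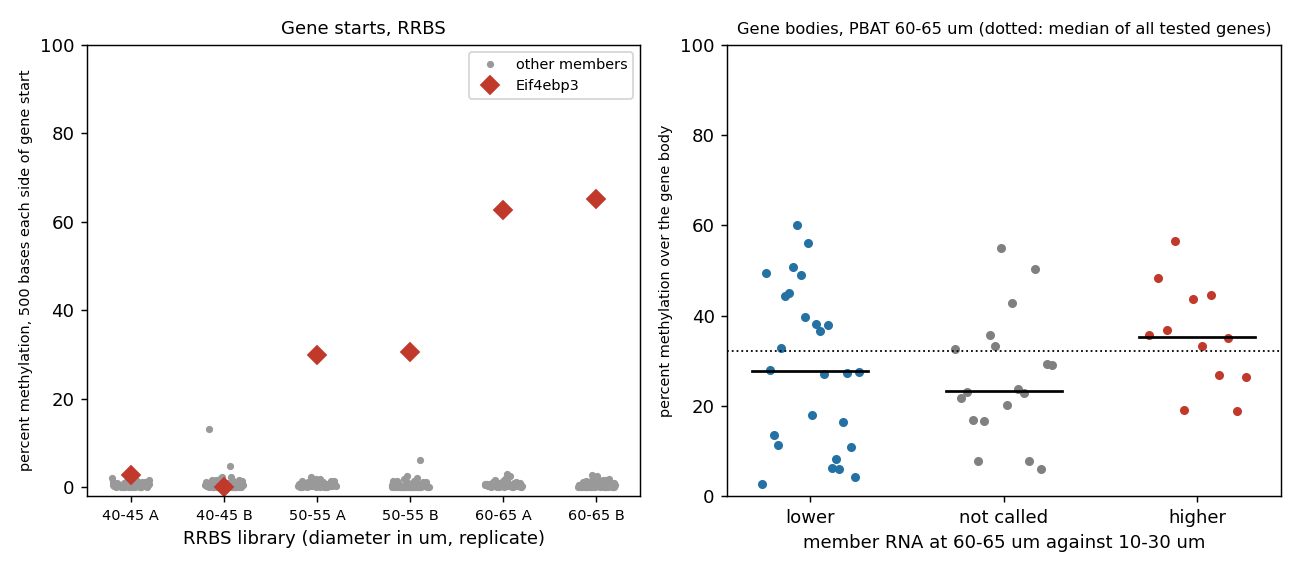
Left, percent methylation within 500 bases of the gene start in 6 RRBS libraries, with Eif4ebp3 as red diamonds and the other members in grey. Right, percent methylation over the gene body in the PBAT library for members whose RNA was lower, not called or higher at 60–65 µm, with the median of each group as a bar and that of all tested genes (32.1%) as a dotted line. Eif4ebp3 rises to 62.6% and 65.1% while the other members stay at 13.3% or below, and the groups at right overlap.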

How the data were processed

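The authors trimmed reads with Trim Galore (0.2.8 for RNA, 0.3.5 for bisulphite libraries), aligned RNA-seq reads to GRCm38 with TopHat2 2.0.9, keeping 1 place per read, and bisulphite reads with Bismark (0.14.0 for RRBS, 0.10.0 for PBAT). They deposited RPKM per reference gene for each RNA library, without further scaling between libraries. The study's methods name Cufflinks for the expression of transcripts and SeqMonk for work on the RNA-seq data. Which program made this table, and whether it counted by strand, is not given in the sources used here. Of single-exon genes, 99.5% to 100.0% had whole reads within 0.02 in each library, which gave the library totals. For each CpG cytosine the authors deposited the percent methylated and the counts of methylated and unmethylated calls (29942043 to 98148116 calls per library), with duplicates removed only from PBAT.

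RPKM was scaled between libraries by a trimmed mean (30% of ratios and 5% of levels left out at each end, factors 0.9415 to 1.064), and log2(RPKM + 0.1) of genes with at least 0.5 RPKM in 2 of 8 libraries was fitted in limma 3.58.1 (R 4.3.3) with a trend in the variance and 1 mean per diameter class, two-sided, with Benjamini-Hochberg adjustment over all genes. Fold changes are on this scale and understate those of low genes. The script was tested on simulated data. A start window needed 5 positions and a gene body 10, each with at least 5 reads. GV values were not tested. Overlapping genes on either strand, among them Eif3m and Ccdc73, Eif2s2 and a, Eif2d and Rassf5, Eif4enif1 and Drg1, and Eif2ak1 with Ankrd61 and Aimp2, may share reads. Python 3.11.15 with pandas 2.3.3, scipy 1.17.1 and matplotlib 3.10.9 was used. Named are the 10 largest called rises and falls, up to 6 calls per step, textbook core factors and the extreme levels. Of other lists the called genes are named. Further members named, such as remaining eIF3 and eIF2B subunits, Eif1b, Eif1ad, Eif2a, Eif2d and Eef1e1, were chosen after their values were seen. Members and lists were chosen with earlier results of these data known.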

Additional observations from a re-analysis of the deposited data

How the results depend on the processing

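The counts of members called over the whole of growth stayed within 1.5 times the reported ones under other pseudocounts, filters, scalings and variance models and without any 1 library (8 to 12 higher, 20 to 32 lower). None of the 41 called members changed sign over the whole of growth in any setting run, while 8 of the 19 not called did (Eif2b2, Eif2s1, Eif2s2, Eif3f, Eif3j, Eif4ebp3, Eif4g2 and Eif5). Of the 60 members, 5 lost their call with no filter, 3 lost and 2 gained it without further scaling, and 2 lost it with median ratios or without a trend in the variance. From 10–30 to 40–45 µm, 13 members were lower without further scaling and 11 with median ratios, and leaving out 1 library gave 3 to 7 higher and 3 to 12 lower. From 40–45 to 50–55 µm, 1 member was higher under either of these scalings, and leaving out 1 library gave 0 to 2 higher and 0 to 5 lower. From 50–55 to 60–65 µm every one of these settings gave 0. Over all genes, leaving out 1 library gave 693 to 1793 higher and 263 to 1031 lower in the first step and 0 to 849 higher and 0 to 781 lower in the second, where no filter gave 368 and 148. In the first step 1521 genes were lower without further scaling, and in the last step 8 were higher with a pseudocount of 1. The cause was not tested.

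The letters A and B do not pair the libraries throughout, since deviations from the class mean correlated at 0.589 to 0.67 among the smaller classes but at -0.227 to 0.113 with 60–65 µm. A fit with the replicate letter as a block gave 16 higher and 31 lower over the whole of growth (3725 and 3573 over all genes), 2 higher and 5 lower from 40–45 to 50–55 µm and 1 lower from 50–55 to 60–65 µm, where 149 genes were higher and 81 lower over the whole table. In the second step it called 1003 genes higher and 906 lower, among them Eef2k (adjusted p = 0.0330, limma) and Eif2ak4 (0.0367) as higher and Eif4ebp1 (0.0278) and Eif2s3x (0.0325) as lower. Over the whole of growth 6 members gained a call under the block: Eif4g1, Eif4g3, Eif4enif1, Eif6, Eef1d and Eef1e1. None lost one.

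The median percent methylation over member gene bodies in PBAT was 32.48% with at least 3 reads per position and 26.73% with at least 8. The percent methylation around the start of Eif4ebp3, RRBS 60-65 um, was 62.02% with at least 10 reads and 62.65% or 65.06% with 1 library. The median percent methylation around member gene starts in PBAT was 3.13% with at least 10 reads and 3.75% within 1000 bases. PBAT has no replicate, and class means rest on 2 libraries.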
